A study of Mus musculus with 18 samples.

Results

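MHC class I peptide loading genes were followed in RNA of dendritic cells sorted from the spleens of ADAM10-deficient (KO) and wild-type (WT) C57BL/6 mice. The set was given by name and holds 9 genes of the 24614 genes with a count. These are the immunoproteasome subunits Psmb8, Psmb9 and Psmb10, the peptide transporter chains Tap1 and Tap2, the loading bridge Tapbp, the trimming peptidase Erap1, the light chain B2m and the transactivator Nlrc5. All 9 were found in the tables, and all 9 were among the 13381 genes that passed the filter on low counts. There were 6 groups of 3 libraries: KO and WT CD8+ cDC1, KO and WT CD4+ cDC2, and KO and WT cDC2 with neither CD4 nor CD8, called CD4- cells here. Living cells carrying both CD11c and MHC class II had been sorted after enrichment for CD11c. ADAM10 sheds the outer parts of surface proteins, Notch receptors among them. The labels give neither the age of the mice nor the way in which ADAM10 was removed, and they do not say that the libraries of a group came from separate animals. The p-values therefore speak only of the spread among the libraries sequenced, part of which may be technical. In these bulk samples, fewer cells of a type and less RNA per cell cannot be told apart.

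Class I molecules show peptides from inside the cell to CD8 T cells. The proteasome cuts proteins into peptides, and in immune cells Psmb8, Psmb9 and Psmb10 can take the places of the constitutive catalytic subunits Psmb5, Psmb6 and Psmb7. Tap1 and Tap2 form the pump that brings peptides into the endoplasmic reticulum, where Tapbp (tapasin) holds the empty class I heavy chain and B2m next to the pump, and Erap1 trims peptides that are too long. Nlrc5 drives transcription of many genes of this pathway, and interferon gamma raises most of them. cDC1 are the splenic dendritic cells best known for showing captured antigen on class I, and cDC2 for showing it on MHC class II.

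The genes lie in a few places of the genome (build GRCm38). Psmb9 (chr17:34181987-34187764, minus strand), Tap1 (chr17:34187553-34197225, plus strand), Psmb8 (chr17:34197721-34201454, plus strand) and Tap2 (chr17:34203527-34216321, plus strand) sit side by side in the MHC, and Tapbp (chr17:33915899-33929292, plus strand) lies nearby. B2m is at chr2:122147686-122153083, Erap1 at chr13:74639568-74693201, Nlrc5 at chr8:94434356-94527272, all on the plus strand, and Psmb10 at chr8:105935735-105938444 on the minus strand. The start of Psmb9 overlaps the start of Tap1 on the other strand, and each of the 9 genes overlaps at least 1 other annotated gene. Use of strand in the counting is not stated, so reads of such overlaps cannot be told apart.

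Promoter windows were taken from RefSeq on GRCm38.p6, from 250 bases before to 50 bases after the annotated start. Of the 9 genes, 7 had a window, and Tap2 and Nlrc5 are named only. The windows below stand for the patterns described further on. B2m was lower in CD8+ than in CD4+ and CD4- cells, Tap1 and Psmb8 were higher, and Psmb10 was called in no comparison. The Tap1 window also stands for Psmb9, since the Psmb9 window shares 275 of its bases on the opposite strand. Bases are in lower case, 5′ to 3′ on the strand of the gene, and capitals mark matches to any of the 5 motifs searched on both strands.
B2m, chr2:122147437-122147736, plus strand: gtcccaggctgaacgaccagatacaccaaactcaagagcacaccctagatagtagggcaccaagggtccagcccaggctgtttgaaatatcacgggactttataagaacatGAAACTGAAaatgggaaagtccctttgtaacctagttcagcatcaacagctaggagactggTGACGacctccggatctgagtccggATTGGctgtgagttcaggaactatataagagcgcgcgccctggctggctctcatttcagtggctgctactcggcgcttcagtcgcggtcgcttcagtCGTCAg
Tap1, chr17:34187306-34187605, plus strand: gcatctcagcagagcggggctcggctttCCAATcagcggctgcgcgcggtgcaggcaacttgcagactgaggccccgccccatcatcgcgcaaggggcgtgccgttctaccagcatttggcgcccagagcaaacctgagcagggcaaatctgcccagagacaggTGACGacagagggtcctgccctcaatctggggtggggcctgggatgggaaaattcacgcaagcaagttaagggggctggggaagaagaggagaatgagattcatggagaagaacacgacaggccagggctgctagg
Psmb8, chr17:34197945-34198244, plus strand: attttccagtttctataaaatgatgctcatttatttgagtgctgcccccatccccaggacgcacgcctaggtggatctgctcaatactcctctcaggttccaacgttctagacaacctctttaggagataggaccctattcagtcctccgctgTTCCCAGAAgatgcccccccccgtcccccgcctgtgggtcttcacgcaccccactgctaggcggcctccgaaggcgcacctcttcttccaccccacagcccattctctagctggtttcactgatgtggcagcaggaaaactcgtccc
Psmb10, chr8:105938343-105938642, minus strand: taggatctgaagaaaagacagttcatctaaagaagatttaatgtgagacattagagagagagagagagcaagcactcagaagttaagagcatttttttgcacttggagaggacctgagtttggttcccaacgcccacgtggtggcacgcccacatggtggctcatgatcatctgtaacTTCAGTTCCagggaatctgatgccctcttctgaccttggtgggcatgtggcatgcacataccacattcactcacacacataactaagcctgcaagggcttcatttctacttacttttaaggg

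The motifs searched were GAAANNGAA, the core of the interferon-stimulated response element, TTCNNNGAA, the interferon gamma activated sequence, GGAANNGAA, an ETS-IRF composite, CCAAT, the core of the Y box, and TGACG, the core of the X2 box. The Y and X2 boxes are part of the promoter module of MHC genes. In the B2m window GAAACTGAA starts 139 bases before the transcription start, TGACG 78 bases before it, and ATTGG, which is CCAAT on the other strand, 53 bases before it. In the Tap1 window CCAAT starts 222 bases and TGACG 86 bases before the start. The Psmb9 window holds these same bases read from the other strand. The Psmb8 window holds TTCCCAGAA 97 bases before the start, and the Psmb10 window TTCAGTTCC 72 bases before it. CCAAT was found in 4 of the 7 windows (B2m, Tap1, Tapbp and Psmb9) and in 37.4% of all 32851 windows of the table. TGACG was found in 3 of 7 (B2m, Tap1 and Psmb9) and in 20.8% of all windows. GAAANNGAA was found in 2 of 7 (B2m and Erap1) and in 8.56% of all, TTCNNNGAA in 1 of 7 (Psmb8) and in 8.3% of all, and GGAANNGAA in 1 of 7 (Psmb10) and in 8.24% of all. A match describes the letters of a window only.

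Library totals ran from 12358884 to 19557469 estimated counts. Adam10 averaged 43.1 ± 2.40 CPM in KO CD4+ cells and 97.6 ± 27.6 CPM in WT CD4+ cells (SD, n = 3 each), and its log2 fold change lay between -1.25 and -1.15 in the 3 populations. CPM are counts scaled to a common library size after TMM normalisation. The 6 cDC1 markers summed to 6003 to 6262 CPM in KO and 5036 to 6101 CPM in WT CD8+ cells. In CD4+ cells they summed to 379 to 496 CPM in KO and 254 to 290.5 CPM in WT libraries. In CD4- cells they summed to 811 to 1176 CPM in KO and 563 to 689 CPM in WT libraries. Of these cDC1 markers, 4 were higher and 0 lower in KO cells of each cDC2 population, and 0 higher and 1 lower in KO CD8+ cells. The 6 cDC2 markers summed to 1873 to 2034 CPM in KO and 1873 to 1949 CPM in WT CD4+ cells, to 1095 to 1233 CPM in KO and 880.1 to 1094 CPM in WT CD4- cells, and to 31.3 to 48.6 CPM in KO and 123 to 182 CPM in WT CD8+ cells. Of these 6, 1 was higher and 2 were lower in KO CD4+ cells, and 1 was higher and 3 were lower in KO CD4- cells. Markers of other cells moved with the genotype. The marker counts above and below stand beside 35.1%, 25.9% and 15.7% of all genes called in CD4+, CD4- and CD8+ cells. The monocyte markers, of which Lyz2 held most, summed to 11950 to 15580 CPM in KO and 2207 to 2610 CPM in WT CD4+ cells (7 of 7 tested genes higher), to 8058 to 10840 CPM in KO and 2159 to 2487 CPM in WT CD4- cells (6 of 7 higher), and to 1545 to 1759 CPM in KO and 425 to 536 CPM in WT CD8+ cells (2 of 7 higher, 1 lower). The macrophage markers summed to 1000.0 to 1180 CPM in KO and 206 to 248 CPM in WT CD4+ cells (8 of 10 higher, 1 lower), and to 469.9 to 562 CPM in KO and 147 to 225 CPM in WT CD4- cells (4 of 10 higher, 1 lower). The NK cell markers summed to 223 to 324 CPM in KO and 659 to 1332 CPM in WT CD4- cells (9 of 10 lower), and to 17.4 to 31.3 CPM in KO and 83.6 to 120.2 CPM in WT CD8+ cells (7 of 10 lower). The T cell markers summed to 18.5 to 59.4 CPM in KO and 163 to 329.6 CPM in WT CD4- cells (10 of 10 lower).

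The KO libraries numbered 1 stood apart from the KO libraries 2 and 3 in genes of the interferon response. Iigp1, an interferon-inducible GTPase, reached 24.2, 25.5 and 22.7 CPM in the KO libraries 1 of CD8+, CD4+ and CD4- cells, against 1.07 to 3.51 CPM in the KO libraries 2 and 3; it was chosen after its values were seen. Irf1, a transcription factor induced by interferon gamma, reached 147, 144 and 137 CPM in the same 3 libraries, against 50.7 to 74.8 CPM in the KO libraries 2 and 3. The WT libraries had 100.3 to 166 CPM, so that for Irf1 the KO libraries 1 lay within the WT range and the other KO libraries below it. Of the 22 interferon-stimulated genes listed, the KO library 1 was the highest of its group for 13 in CD8+, 16 in CD4+ and 18 in CD4- cells. For the 9 class I loading genes it was the highest for 7, 9 and 9, and for 7 genes it was so in all 3 populations. Among WT libraries, number 2 was the highest for 7, 8 and 8 of the 9 genes and for 15, 17 and 19 of the 22 interferon-stimulated genes. The labels do not say what a shared number stands for. Results below are given with all libraries. Where the call or the size differs, the 9 genes and some lists are also given without the 3 KO libraries numbered 1. That choice was made after the data were seen. This choice leaves out the highest KO library for most of the 9 genes and keeps WT library 2, so it mostly lowers KO means.

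**Figure D1:**
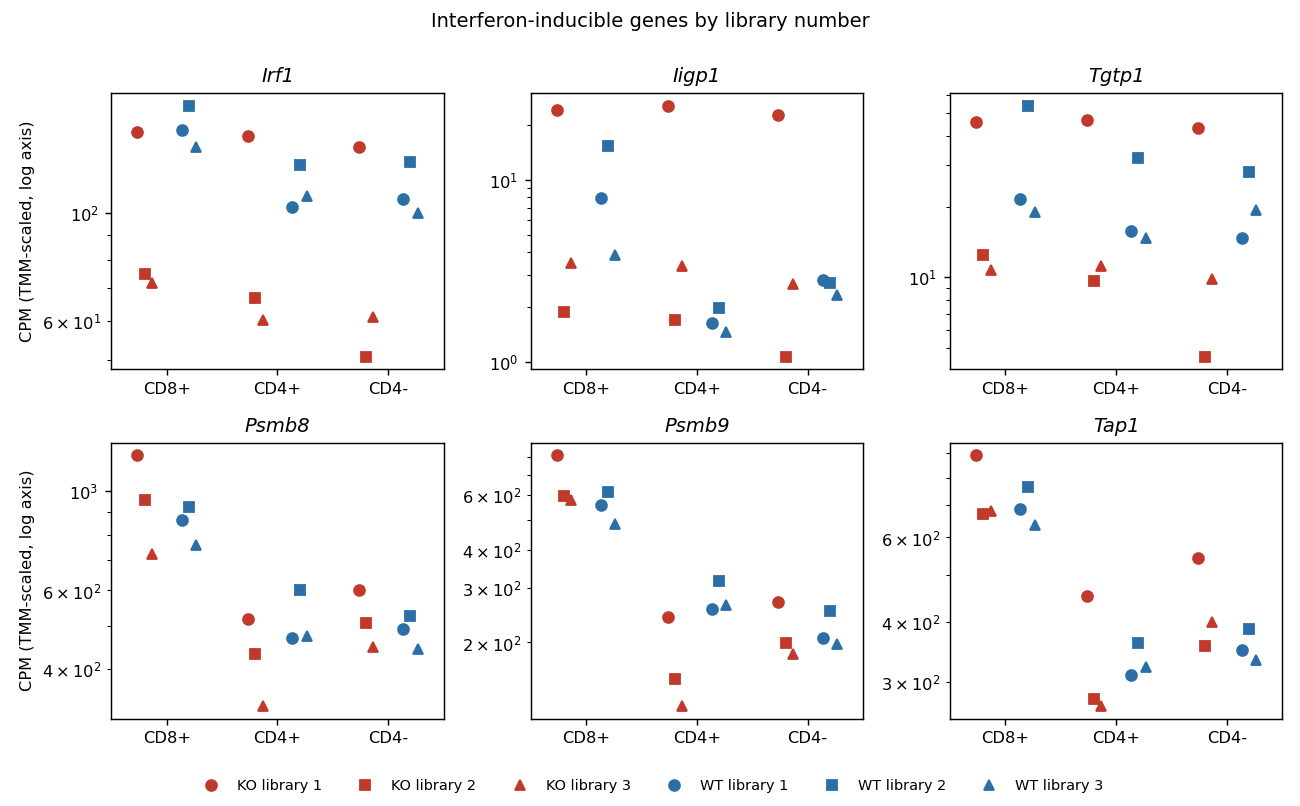
CPM on log axes of the interferon-inducible genes Irf1, Iigp1 and Tgtp1 and of the loading genes Psmb8, Psmb9 and Tap1, in each population, for KO (red) and WT (blue) libraries, with 1 point per library and a shape for its number. The KO libraries 1 (red circles) lie above the other KO libraries in every panel, for Iigp1 at 22.7 to 25.5 CPM against 1.07 to 3.51 CPM.

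Per unit of transcript length, B2m was by far the most abundant of the 9. TPM, which are scaled by transcript length, allow such a comparison between genes. B2m averaged 1832 TPM in KO CD8+ cells and 2257 TPM in WT CD8+ cells, 3385 and 3431 TPM in KO and WT CD4+ cells, and 2831 and 3386 TPM in KO and WT CD4- cells. Psmb8 came next, at 896 and 877 TPM in KO and WT CD8+ cells, against 352 and 499 TPM in KO and WT CD4+ cells. Psmb9 averaged 493 and 448 TPM in KO and WT CD8+ cells, and 124 and 225 TPM in KO and WT CD4+ cells. Tap1, Tap2, Tapbp and Psmb10 lay between 75.3 and 256 TPM in all 6 groups, with ranges that overlap one another, and Erap1 between 62.8 and 95.4 TPM. Nlrc5, the regulator, was the lowest of the 9 in every group, at 6.62 to 13.9 TPM. These levels depend on the transcripts that the estimation assigned reads to. For example, 1 transcript of Psmb8 held 13.3% of the gene's counts and 53.9% of its TPM, 1 of Psmb9 held 17.6% and 52.2%, 1 of Tap2 held 6.19% and 52.1%, and 1 of Tapbp held 6.10% and 39.2%. CPM from counts summed over a gene's transcripts are used below, and these serve to compare libraries, not genes.

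**Figure D2:**
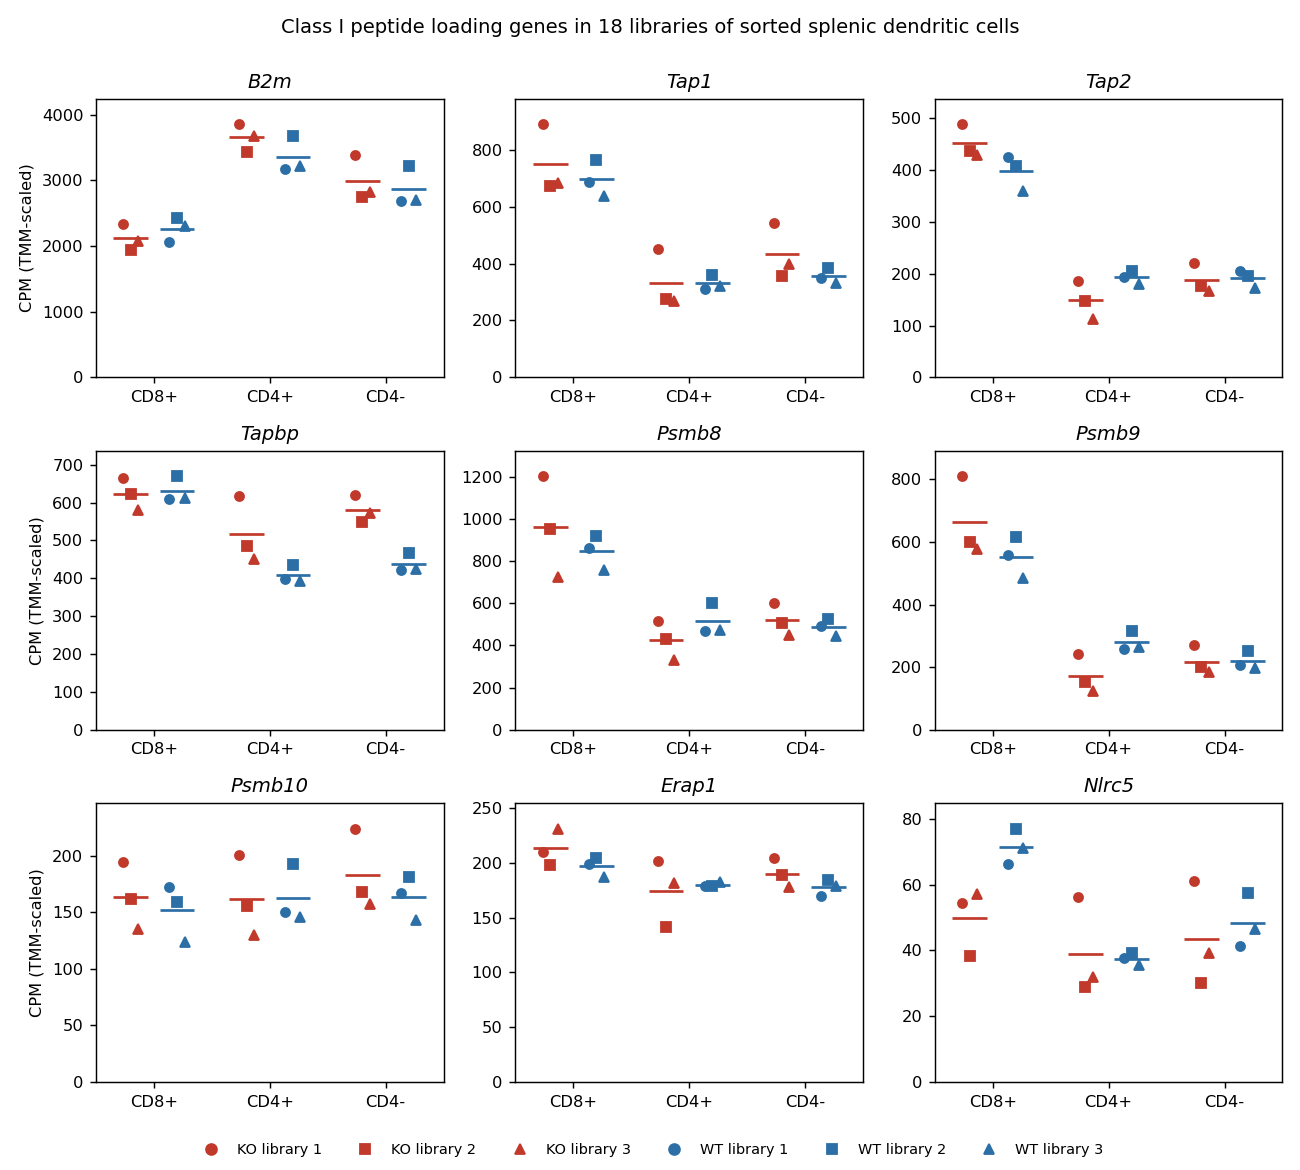
CPM of the 9 genes in 18 libraries, by population, with KO in red to the left of WT in blue. Each point is a library, its shape gives its number, and bars are group means. Tap1, Tap2, Psmb8 and Psmb9 are highest in CD8+ cells of both genotypes, B2m is lowest there, and Psmb10 is at a like level throughout.

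CD8+ cells carried more RNA of the peptide pump and of the immunoproteasome subunits Psmb8 and Psmb9 than either cDC2 population, and less of B2m. Within KO cells, 6 of the 9 genes were higher and 1 was lower in CD8+ than in CD4+ cells, where 50.8% of all genes tested were called in either direction. Within WT cells the same comparison gave 6 higher and 1 lower, where 45.6% of all genes were called. Against CD4- cells, 4 were higher and 1 lower in KO CD8+ cells (46.6% of all genes called), and 5 were higher and 1 lower in WT CD8+ cells (42.9%). The median log2 difference of the 9 genes between CD8+ and CD4+ cells was 0.35 in KO and 0.72 in WT cells, beside medians of all genes of 0.0021 and -3.45e-05. Against CD4- cells the medians of the 9 were 0.20 in KO and 0.57 in WT cells, beside 0.0045 and 0.0048 for all genes. The comparisons with CD4+ and with CD4- cells share the CD8+ libraries. Calls rest on edgeR's quasi-likelihood test with Benjamini-Hochberg adjustment over all genes tested and a threshold of 0.05, and the adjusted p-values below come from it.

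Psmb9 replaces Psmb6, a catalytic subunit, and showed the largest difference of the 9 in KO cells. It had 810.1, 599 and 578 CPM in KO CD8+ cells, against 241, 152 and 124 CPM in KO CD4+ cells and 271, 199 and 184 CPM in KO CD4- cells. In WT cells it had 558, 615 and 485 CPM in CD8+ cells, against 257, 316 and 265 CPM in CD4+ cells and 206, 252 and 197 CPM in CD4- cells. Every CD8+ library lay above every CD4+ and CD4- library of either genotype. The log2 difference between CD8+ and CD4+ cells was 1.94 ± 0.22 in KO (SE, adjusted p = 1.05e-06) and 0.98 ± 0.21 in WT cells (adjusted p = 0.00107), and that between CD8+ and CD4- cells was 1.60 ± 0.21 in KO (adjusted p = 1.06e-05) and 1.34 ± 0.21 in WT cells (adjusted p = 8.15e-05).

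Psmb8, which replaces Psmb5, had 1203, 954 and 724 CPM in KO CD8+ cells, against 517, 432 and 331 CPM in KO CD4+ and 602, 507 and 449.5 CPM in KO CD4- cells. In WT cells it had 861, 919.7 and 759 CPM in CD8+ cells, against 469, 599.9 and 474 CPM in CD4+ and 492, 527 and 443 CPM in CD4- cells. The CD8+ libraries again lay above all others. The log2 difference between CD8+ and CD4+ cells was 1.17 ± 0.18 in KO (adjusted p = 3.99e-05) and 0.72 ± 0.18 in WT cells (adjusted p = 0.00346), and between CD8+ and CD4- cells 0.89 ± 0.18 in KO (adjusted p = 0.000639) and 0.80 ± 0.18 in WT cells (adjusted p = 0.00181). Psmb10, which replaces Psmb7, did not share this pattern. It had 194, 161 and 135 CPM in KO CD8+ cells, against 200.4, 156 and 129.8 CPM in KO CD4+ and 224, 168 and 157 CPM in KO CD4- cells. In WT cells it had 172, 159 and 124 CPM in CD8+ cells, against 150.4, 192 and 145.5 CPM in CD4+ and 167, 181 and 143 CPM in CD4- cells. The groups overlap throughout, and the log2 differences lay between -0.16 and 0.01 (lowest adjusted p = 0.505).

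The chains of the pump moved together. Tap2 had 489, 436 and 429 CPM in KO CD8+ cells, against 187, 148 and 113 CPM in KO CD4+ and 222, 176 and 166 CPM in KO CD4- cells. In WT cells it had 425, 408 and 360.0 CPM in CD8+ cells, against 194, 206 and 179.6 CPM in CD4+ and 206, 195 and 172 CPM in CD4- cells. No CD8+ library overlapped a library of the other populations. The log2 difference between CD8+ and CD4+ cells was 1.60 ± 0.15 in KO (adjusted p = 1.32e-07) and 1.04 ± 0.15 in WT cells (adjusted p = 2.07e-05). Between CD8+ and CD4- cells it was 1.26 ± 0.15 in KO (adjusted p = 2.54e-06) and 1.06 ± 0.15 in WT cells (adjusted p = 2.24e-05). Tap1 had 891, 673 and 682 CPM in KO CD8+ cells, against 453, 276 and 267 CPM in KO CD4+ and 543, 356 and 399.6 CPM in KO CD4- cells. In WT cells it had 687, 764 and 638 CPM in CD8+ cells, against 309, 361 and 321 CPM in CD4+ and 349, 386 and 333 CPM in CD4- cells. The CD8+ libraries lay above all others here too, with a log2 difference from CD4+ cells of 1.17 ± 0.19 in KO (adjusted p = 5.86e-05) and 1.08 ± 0.19 in WT cells (adjusted p = 0.000167), and from CD4- cells of 0.79 ± 0.19 in KO (adjusted p = 0.00228) and 0.97 ± 0.19 in WT cells (adjusted p = 0.000518).

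B2m, the light chain that every class I molecule needs to reach the surface, went the other way. It had 2341, 1944 and 2070.2 CPM in KO CD8+ cells, against 3859, 3426 and 3672 CPM in KO CD4+ and 3384, 2748 and 2817 CPM in KO CD4- cells. In WT cells it had 2069, 2425 and 2299.8 CPM in CD8+ cells, against 3179.7, 3682 and 3219 CPM in CD4+ and 2692, 3226 and 2700.3 CPM in CD4- cells. The 6 CD8+ libraries were the lowest of the 18. The log2 difference between CD8+ and CD4+ cells was -0.79 ± 0.10 in KO (adjusted p = 6.49e-06) and -0.57 ± 0.10 in WT cells (adjusted p = 0.000217), and between CD8+ and CD4- cells -0.49 ± 0.10 in KO (adjusted p = 0.00076) and -0.34 ± 0.10 in WT cells (adjusted p = 0.012). The last of these was not called without the WT CD4- library 2 (-0.27, adjusted p = 0.0574). H2-K1, a class I heavy chain, was also lower in CD8+ than in CD4+ cells of KO mice (-0.49 ± 0.15, adjusted p = 0.0124), and in WT cells its difference was -0.29 ± 0.15 (adjusted p = 0.131).

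Tapbp was higher in CD8+ cells of WT mice, at 609, 669.8 and 613 CPM, against 397, 435 and 392.1 CPM in WT CD4+ and 423, 468 and 426 CPM in WT CD4- cells. Its log2 difference was 0.63 ± 0.10 from CD4+ (adjusted p = 7.18e-05) and 0.52 ± 0.10 from CD4- cells (adjusted p = 0.000482), with no overlap. In KO cells it had 664, 623 and 580.0 CPM in CD8+ cells, against 617, 486 and 452 CPM in CD4+ and 619, 550.0 and 573 CPM in CD4- cells. These groups overlap, and the log2 difference from CD4+ cells was 0.26 ± 0.10 (adjusted p = 0.0363) and from CD4- cells 0.10 ± 0.10 (adjusted p = 0.445). The Tapbp values depend on the transcript lengths that the estimation assigned. With these lengths in the fit the difference from CD4+ cells was -0.13 in KO (adjusted p = 0.506) and 0.35 in WT cells (adjusted p = 0.0783).

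Nlrc5 was higher in WT CD8+ cells, at 66.3, 77.0 and 70.9 CPM, against 37.8, 39.3 and 35.5 CPM in WT CD4+ and 41.3, 57.3 and 46.3 CPM in WT CD4- cells. It did not overlap between WT populations, and its log2 difference was 0.93 ± 0.25 from CD4+ (adjusted p = 0.00573) and 0.57 ± 0.25 from CD4- cells (adjusted p = 0.0767). In KO cells it had 54.3, 38.2 and 57.2 CPM in CD8+ cells, against 56.2, 28.9 and 31.9 CPM in CD4+ and 61.0, 30.1 and 39.2 CPM in CD4- cells. These groups overlap. The difference from CD4+ cells was 0.35 ± 0.25 (adjusted p = 0.255) with all KO libraries and 0.65 without those numbered 1 (adjusted p = 0.0115). Erap1 varied little. It lay between 141 and 231 CPM in all 18 libraries, its log2 difference between CD8+ and CD4+ cells was 0.29 ± 0.10 in KO (adjusted p = 0.0267) and 0.13 ± 0.10 in WT cells (adjusted p = 0.332), and the KO call was lost under 7 alternatives. Without the KO libraries 1, CD8+ cells were higher than CD4+ cells for 7 genes and lower for 1, where 43.4% of all genes were called.

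**Figure D3:**
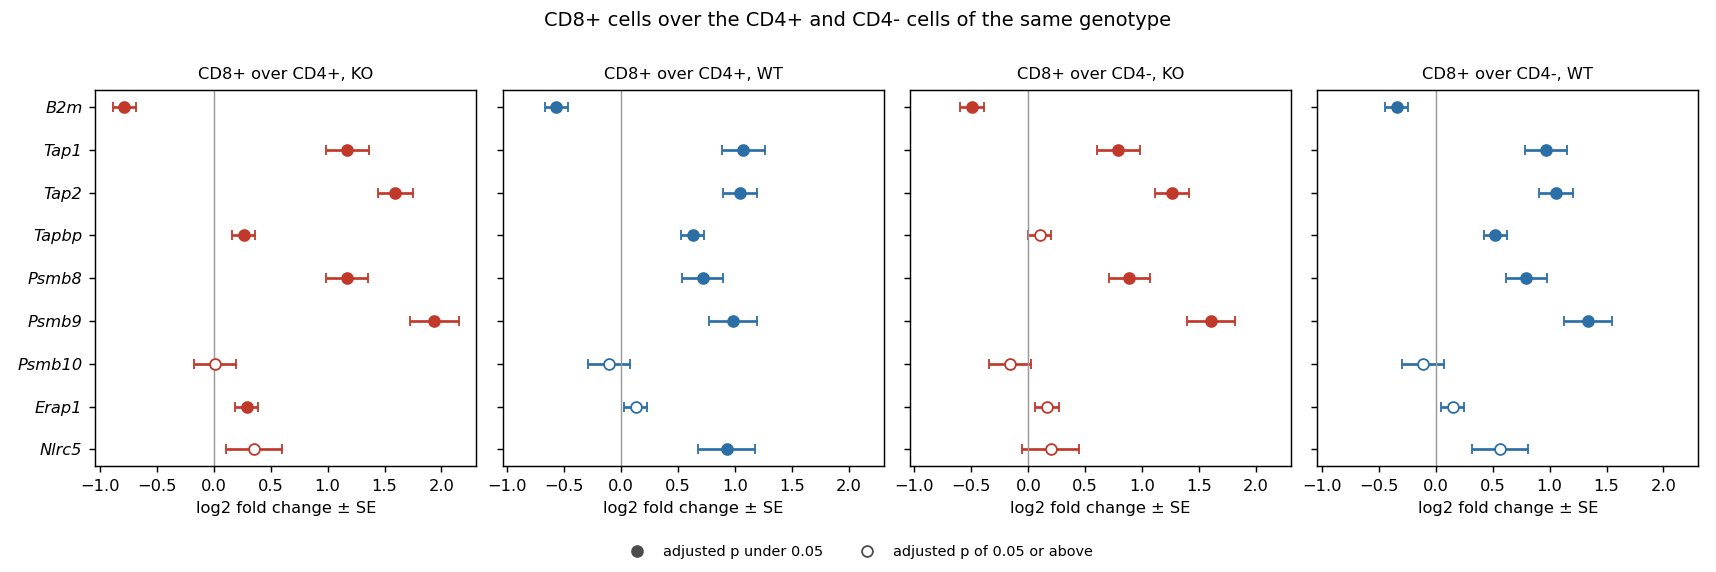
Log2 fold change ± SE of each gene, for CD8+ over CD4+ cells and CD8+ over CD4- cells in KO (red) and WT (blue). Filled points have an adjusted p under 0.05 in edgeR's quasi-likelihood test. Tap1, Tap2, Psmb8 and Psmb9 lie right of 0 and B2m left of 0 in all 4 panels, with Psmb9 at 1.94 in KO cells against CD4+ cells.

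Between the cDC2 populations, 0 of the 9 genes were called in KO (7.95% of all genes called) and 0 in WT cells (16.7%). At an unadjusted p under 0.05, 2 passed in KO and 1 in WT cells, and DESeq2 called 0 in either. The largest values were -0.38 ± 0.19 for Tap1 in KO (adjusted p = 0.252) and -0.36 ± 0.25 for Nlrc5 in WT cells (adjusted p = 0.38). In KO cells B2m was at 0.29 ± 0.10 (adjusted p = 0.0971). Without the KO libraries 1, Tap1 was lower in KO CD4+ than in KO CD4- cells (-0.48, adjusted p = 0.0198), where 6.11% of all genes were called. These fits do not pair libraries by number. With a block for library number within genotype, 5 of the 9 genes were called in KO cells, where 11.6% of all genes were called. They were B2m, which was higher in CD4+ cells, and Tap1, Tap2, Psmb8 and Psmb9, which were lower. In WT cells that block called 2, where 21.3% of all genes were called.

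The 9 genes were compared between KO and WT cells in each population. The counts called were not tested against the shares of all genes. In CD4+ cells Tapbp rose and Psmb9 fell, so that 2 of 9 were called, where 35.1% of all genes tested were called. In CD4- cells Tapbp rose, 1 of 9, where 25.9% of all genes were called. In CD8+ cells 0 of 9 were called, where 15.7% of all genes were called, and at an unadjusted p under 0.05 0 passed. DESeq2 also called 0 there. The median log2 fold change of the 9 genes was -0.0059 in CD4+, 0.09 in CD4- and 0.11 in CD8+ cells, beside 0.016, 0.021 and 0.0027 for all genes. The monocyte markers moved in the same cells (11950 to 15580 CPM in KO and 2207 to 2610 CPM in WT CD4+ cells), and in CD4- cells so did the NK and T cell markers. Of the 6 cDC1 markers, 4 were higher in KO cells of each cDC2 population. The part of these markers in the results on the 9 genes was not tested.

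Psmb9 had 241, 152 and 124 CPM in KO CD4+ cells, against 257, 316 and 265 CPM in WT CD4+ cells. The KO libraries lay below the WT libraries, with library 1 close to them. The log2 fold change was -0.69 ± 0.21 (adjusted p = 0.0166), and -1.01 without the KO libraries 1 (adjusted p = 7.24e-05). The call was lost when KO CD4+ library 2 (adjusted p = 0.0702) or 3 (0.0846) or WT CD4+ library 2 (0.0695) was left out. In CD4- cells the fold change was 0.00 ± 0.21 (adjusted p = 0.993), with 271, 199 and 184 CPM in KO and 206, 252 and 197 CPM in WT libraries. In CD8+ cells it was 0.26 ± 0.21 (adjusted p = 0.462), with 810.1, 599 and 578 CPM in KO and 558, 615 and 485 CPM in WT libraries.

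Tapbp had 617, 486 and 452 CPM in KO CD4+ cells, against 397, 435 and 392.1 CPM in WT CD4+ cells, and 619, 550.0 and 573 CPM in KO CD4- cells, against 423, 468 and 426 CPM in WT CD4- cells. KO libraries lay above WT libraries in both populations. The log2 fold change was 0.34 ± 0.10 in CD4+ (adjusted p = 0.0131) and 0.40 ± 0.10 in CD4- cells (adjusted p = 0.00657). Without the KO libraries 1 it was 0.20 in CD4+ (adjusted p = 0.0783) and 0.36 in CD4- cells (adjusted p = 0.00543). With transcript lengths in the fit neither was called (0.22, adjusted p = 0.303, and 0.21, adjusted p = 0.377), and on log2(TPM + 1) the CD4- value was -0.08. In CD8+ cells Tapbp was at -0.02 ± 0.10 (adjusted p = 0.939). In TPM it was lower there, at 200, 192 and 173 TPM in KO against 224, 291 and 252 TPM in WT libraries. It was called lower on log2(TPM + 1), a scale that moved the median of all genes by -0.128 in that comparison.

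The other 7 genes were not called in any population with all libraries. Tap2 had 187, 148 and 113 CPM in KO CD4+ cells, against 194, 206 and 179.6 CPM in WT CD4+ cells, with KO library 1 inside the WT range. Its log2 fold change was -0.37 ± 0.15 (adjusted p = 0.061), and -0.56 without the KO libraries 1 (adjusted p = 0.00242). Psmb8 was at -0.27 ± 0.18 in CD4+ cells (adjusted p = 0.269), and at -0.43 without those libraries (adjusted p = 0.0464). Tap1 was at 0.01 ± 0.19 in CD4+ cells (adjusted p = 0.987), and at -0.28 without those libraries (adjusted p = 0.0425), so that its direction turned. In that fit 4 of the 9 genes (Tap1, Tap2, Psmb8 and Psmb9) were lower in KO CD4+ cells and 0 were higher, where 32.9% of all genes were called. All 4 lie next to each other on chromosome 17. KO library 1 was the highest KO CD4+ library for all 9 genes, so leaving it out lowers every KO mean. WT library 2, the highest WT CD4+ library for 8 of the 9 genes, was kept. The calls of that fit therefore follow in part from the choice of libraries.

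Nlrc5 had 54.3, 38.2 and 57.2 CPM in KO CD8+ cells, against 66.3, 77.0 and 70.9 CPM in WT CD8+ cells. The KO libraries were below all WT libraries, but the spread was wide. The log2 fold change was -0.52 ± 0.25 (adjusted p = 0.189), and -0.58 without the KO libraries 1 (adjusted p = 0.0374), where 12.8% of all genes were called. In CD4+ and CD4- cells Nlrc5 was at 0.06 ± 0.25 and -0.15 ± 0.25 (adjusted p = 0.888 and 0.725). B2m lay between -0.10 and 0.12, Erap1 between -0.05 and 0.11, and Psmb10 between -0.01 and 0.16 in the 3 populations, each with an SE of 0.10 to 0.18.

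**Figure D4:**
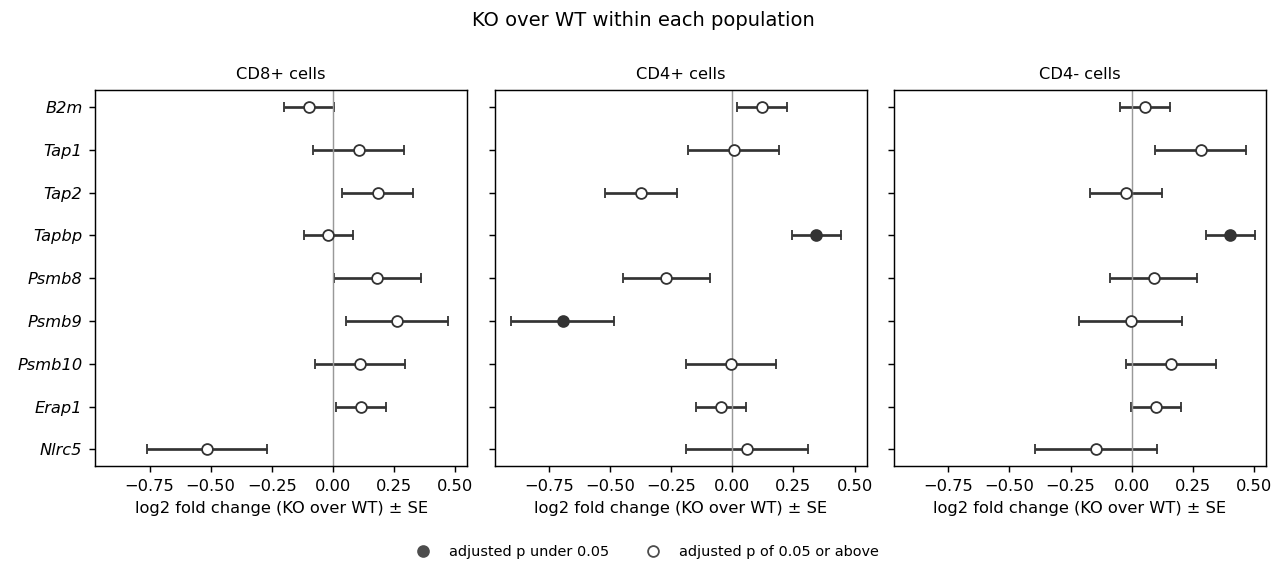
Log2 fold change ± SE of KO over WT for each gene in CD8+, CD4+ and CD4- cells. Filled points have an adjusted p under 0.05 in edgeR's quasi-likelihood test: Psmb9 at -0.69 and Tapbp at 0.34 in CD4+ cells and Tapbp at 0.40 in CD4- cells.

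The difference between populations in the effect of the KO was tested directly. The Psmb9 effect in CD4+ cells was lower than that in CD8+ cells by a log2 difference of -0.96 ± 0.30 (adjusted p = 0.028), the 1 gene of 9 called, where 22.1% of all genes were called. Without the KO libraries 1 the value was -1.11 (adjusted p = 0.000972), and Tap2 was called as well (-0.69, adjusted p = 0.00962). With all libraries Tap2 was at -0.55 ± 0.21 (adjusted p = 0.0678) and Tapbp at 0.36 ± 0.14 (adjusted p = 0.08). The Psmb9 call was lost when any of 5 single libraries was left out (adjusted p = 0.0688 to 0.0786). These were the KO CD4+ libraries 2 and 3, WT CD4+ library 2, KO CD8+ library 1 and WT CD8+ library 3. Between CD4- and CD8+ cells 0 of 9 effects differed (13.2% of all genes called), with Tapbp nearest at 0.42 ± 0.14 (adjusted p = 0.061). Between CD4+ and CD4- cells 0 of 9 differed (3.76% of all genes called), with Psmb9 nearest at -0.69 ± 0.30 (adjusted p = 0.264), and at -0.83 without the KO libraries 1 (adjusted p = 0.0303). At an unadjusted p under 0.05, 1 and 1 of the 9 passed in these 2 tests, and DESeq2 called 1 and 0. The fits above do not pair libraries by number. With a block for library number within genotype, 5 of the 9 effects differed between CD4+ and CD8+ cells (26.5% of all genes called). That block called 1 between CD4- and CD8+ cells (17.0%) and 2 between CD4+ and CD4- cells (6.35%).

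Each immunosubunit was set against the constitutive subunit whose place it takes, as the ratio of their TPM in each library. The ratio of Psmb9 to Psmb6 was 6.31, 5.79 and 5.84 in KO CD8+ cells, against 4.76, 4.41 and 4.12 in WT CD8+ cells. In CD4+ cells it was 2.35, 1.44 and 1.54 in KO, against 2.62, 3.00 and 2.85 in WT libraries. KO libraries were all above WT libraries in CD8+ cells and all below them in CD4+ cells. On the log2 scale the ratio averaged 2.58 ± 0.07 in KO and 2.15 ± 0.10 in WT CD8+ cells, and 0.80 ± 0.38 in KO and 1.5 ± 0.10 in WT CD4+ cells (SD, n = 3 each). The two-sided exact permutation p was 0.1 in both, the smallest that 3 against 3 libraries can give, and 0.3 after adjustment over the 9 ratio tests. The ratio of Psmb8 to Psmb5 was 14.7, 11.6 and 11.0 in KO CD8+ cells, against 10.4, 10.3 and 9.51 in WT CD8+ cells (exact permutation p = 0.1, adjusted 0.3). As a ratio of CPM it was 8.91, 7.03 and 6.07 in KO, against 5.80, 6.48 and 5.79 in WT CD8+ cells, and these overlap. The CPM ratios of Psmb9 to Psmb6 did not overlap in CD8+ cells (4.95 to 5.48 in KO, 3.74 to 4.18 in WT) or in CD4+ cells (1.36 to 2.23 in KO, 2.48 to 2.69 in WT). The TPM ratio of Psmb8 to Psmb5 in CD4+ cells was 9.53, 5.12 and 6.30 in KO, against 8.22, 8.93 and 6.84 in WT libraries. These groups overlap (exact permutation p = 0.5). The ratio of Psmb10 to Psmb7 was lower in CD8+ cells than in cDC2, at 1.97, 1.88 and 1.77 in KO and 1.88, 1.5 and 1.37 in WT CD8+ cells, against 2.40 to 3.60 in the 12 cDC2 libraries. Its KO and WT groups overlap in each population. The constitutive subunits were called in 0 of 3 cases in each KO comparison (log2 between -0.13 and 0.10). In CD8+ cells all 3 were higher than in CD4+ cells, Psmb7 most (0.71 ± 0.10 in KO, adjusted p = 1.52e-05, and 0.74 ± 0.10 in WT, adjusted p = 1.11e-05).

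**Figure D5:**
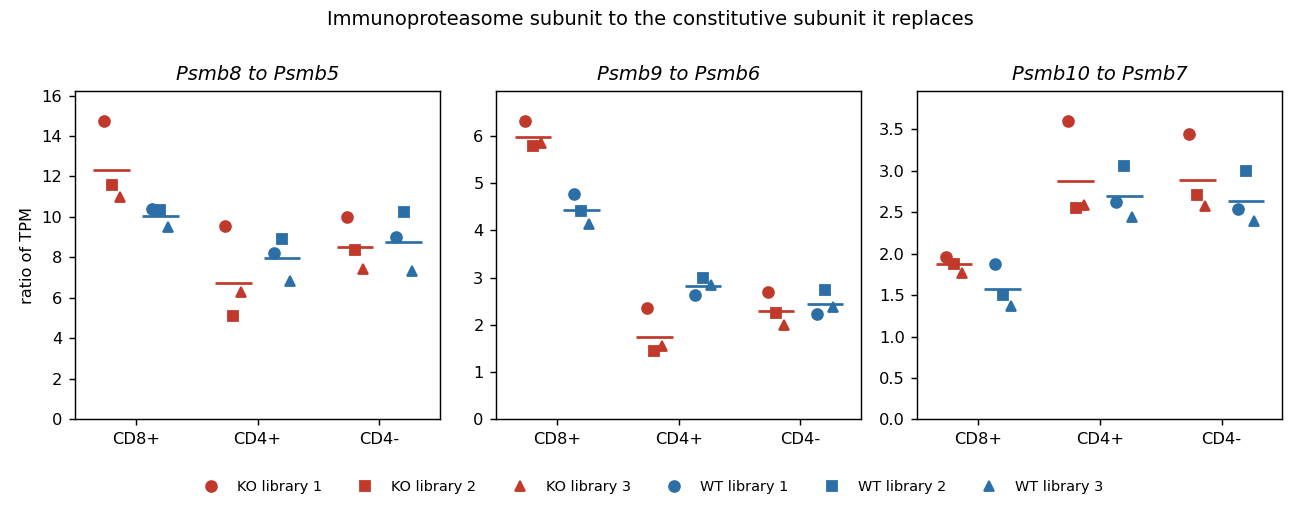
Ratio of TPM of each immunosubunit to its constitutive counterpart by population, with KO in red to the left of WT in blue, 1 point per library and bars at the geometric mean. For Psmb9 to Psmb6 the KO points (5.79 to 6.31) lie above the WT points (4.12 to 4.76) in CD8+ cells and below them in CD4+ cells (1.44 to 2.35 against 2.62 to 3.00).

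Other genes of the pathway were described by the same call. Of 9 proteasome activators and assembly factors, 7 were higher and 0 lower in CD8+ than in CD4+ cells of KO mice (median log2 0.64), where 50.8% of all genes were called in either direction. In WT cells 6 were higher and 0 lower (median 0.56), where 45.6% of all genes were called. They include Psme1, a subunit of the activator PA28 (1.31 ± 0.13 in KO, adjusted p = 3.35e-07, and 0.82 ± 0.13 in WT, adjusted p = 7.58e-05), and Pomp, which helps assemble new proteasomes (1.17 ± 0.10 in KO, adjusted p = 3.53e-08, and 1.04 ± 0.10 in WT, adjusted p = 1.95e-07). Of 11 other subunits of the proteasome core, 10 were higher in KO and 6 in WT CD8+ cells than in CD4+ cells, and 0 were lower. Of 17 subunits of its cap, 11 were higher and 1 lower in KO, and 10 were higher and 0 lower in WT cells. These counts stand beside the same 50.8% and 45.6%. Between KO and WT CD4+ cells, where 35.1% of all genes were called, 1 of the 9 activators and assembly factors was lower (Psme3, -0.21 ± 0.07, adjusted p = 0.0323) and 1 of the 17 cap subunits was lower (Psmd14, -0.43 ± 0.08, adjusted p = 0.000468). Of the 11 core subunits 2 were higher and 3 lower there, among them Psma6 (0.31 ± 0.10, adjusted p = 0.0205), Psma7 (0.26 ± 0.09, adjusted p = 0.0273), Psma3 (-0.37 ± 0.11, adjusted p = 0.0123) and Psma1 (-0.30 ± 0.09, adjusted p = 0.0157). In CD4- cells Psma6 and Psma7 were called higher and 0 of these genes lower, and in CD8+ cells 0 were called by edgeR. The Psma6 and Psma7 calls were lost on log2(TPM + 1) in both populations.

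Of 8 chaperones and peptide editing factors of the endoplasmic reticulum, 5 rose, 1 fell and 2 were not called in KO CD4+ cells, where 35.1% of all genes were called. In KO CD4- cells 5 rose and 3 were not called, where 25.9% of all genes were called, and in KO CD8+ cells 0 of 8 were called, where 15.7% were. The medians were 0.31, 0.36 and 0.02. Without the KO libraries 1 the counts were 4 higher and 2 lower, and 5 higher and 1 lower. Calr, calreticulin, which holds heavy chains in the loading complex, had 1056, 1110.4 and 1039 CPM in KO CD4+ cells, against 659, 816 and 623 CPM in WT CD4+ cells. Its log2 fold change was 0.61 ± 0.12 in both cDC2 populations (adjusted p = 0.000803 in CD4+ and 0.0014 in CD4- cells). Pdia3, its oxidoreductase partner, rose by 0.53 ± 0.11 in CD4+ cells (adjusted p = 0.0015) and 0.40 ± 0.11 in CD4- cells (adjusted p = 0.0164). Canx, calnexin, rose by 0.58 ± 0.08 (adjusted p = 2.98e-05) and 0.41 ± 0.08 (adjusted p = 0.00112), and was not called on log2(TPM + 1) in either population (0.24 and 0.08). Uggt1, which checks the folding of glycoproteins, rose by 0.40 ± 0.08 (adjusted p = 0.000853) and 0.42 ± 0.08 (adjusted p = 0.000956). The monocyte and macrophage markers given above moved in the same populations, and their part in these changes was not tested. Of the 15 class I heavy chain and related genes tested, 2 were higher and 3 lower in KO CD4+ cells. In KO CD4- cells 2 were higher and 1 lower, and in KO CD8+ cells 0 higher and 2 lower. These counts stand beside the same 35.1%, 25.9% and 15.7% of all genes, and the medians were -0.18, -0.52 and -0.35. With the KO libraries 1 left out, 2 were higher and 5 lower, 1 higher and 5 lower, and 0 higher and 3 lower. The shares of all genes were then 32.9%, 23.9% and 12.8%. KO library 1 was the highest of its group for 10, 12 and 8 of the 15 genes. Cd1d1, which shows lipids to NKT cells, fell by 2.04 on the log2 scale in KO CD4+ cells (adjusted p = 1.02e-07), by 1.30 in KO CD4- cells (adjusted p = 3.42e-05) and by 1.06 in KO CD8+ cells (adjusted p = 0.000135). H2-T10 fell by 2.04 in KO CD4+ cells (adjusted p = 0.00913), and H2-M2 fell by 2.26 in KO CD8+ cells (adjusted p = 0.00015). H2-T23, a nonclassical class I chain, rose by 0.46 ± 0.13 in CD4+ (adjusted p = 0.0102) and by 0.59 ± 0.13 in CD4- cells (adjusted p = 0.00252). H2-D1 rose by 0.42 ± 0.10 in CD4+ (adjusted p = 0.00243) and by 0.31 ± 0.10 in CD4- cells (adjusted p = 0.0248), and H2-K1 was at 0.15, 0.06 and -0.05 in CD4+, CD4- and CD8+ cells (adjusted p = 0.482, 0.819 and 0.888). Reads of these near-identical heavy chains may have been divided between genes, so their values are uncertain.

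Of 22 regulators of class I genes, 3 were higher and 4 lower in KO CD4+ cells, 5 higher and 4 lower in KO CD4- cells, and 3 higher and 1 lower in KO CD8+ cells, where 35.1%, 25.9% and 15.7% of all genes were called. Ifnar1, a chain of the type I interferon receptor, rose by 0.76 ± 0.07 in CD4+ (adjusted p = 4.47e-07), 0.60 ± 0.07 in CD4- (adjusted p = 1.54e-05) and 0.28 ± 0.07 in CD8+ cells (adjusted p = 0.0135), and on log2(TPM + 1) it was called in none of them. Nfkb1, an NF-kappaB subunit, fell by 0.76 in KO CD4+ cells (adjusted p = 0.000637) and by 0.73 in KO CD8+ cells (adjusted p = 0.0022). Irf1 was at -0.31 ± 0.36 in CD4+, -0.42 ± 0.36 in CD4- and -0.62 ± 0.36 in CD8+ cells (adjusted p = 0.549, 0.44 and 0.289). Without the KO libraries 1 it was lower in KO cells of all 3 populations (-0.82, -0.99 and -1.03, highest adjusted p = 0.000208). These libraries were singled out partly by their high Irf1, so a lower KO value without them was built into the choice. Irf8, a transcription factor that cDC1 need, was higher in CD8+ than in CD4+ cells by 3.93 ± 0.16 in KO (adjusted p = 7.01e-12) and 4.23 ± 0.16 in WT cells (adjusted p = 6.46e-12). It rose in KO CD4+ cells by 0.65 ± 0.15 (adjusted p = 0.00205) and in KO CD4- cells by 0.55 ± 0.15 (adjusted p = 0.0099). Of 22 interferon-stimulated genes, 3 were higher and 13 lower in CD8+ than in CD4+ cells of KO mice (median -0.87), and 2 higher and 11 lower in WT cells (median -0.86), where 50.8% and 45.6% of all genes were called. Between KO and WT CD4+ cells 4 were higher and 4 lower, and between KO and WT CD4- cells 3 higher and 1 lower. In CD8+ cells 3 were higher and 0 lower, and the shares of all genes were 35.1%, 25.9% and 15.7%. Without the KO libraries 1, 3 were higher in each, and 3, 5 and 6 lower, beside 32.9%, 23.9% and 12.8% of all genes. As for Irf1, lower KO values were built into that choice. Mx1, an antiviral GTPase, rose by 1.04 ± 0.16 in KO CD4+ cells (adjusted p = 7.1e-05), and Isg15, a ubiquitin-like protein, fell by 1.25 there (adjusted p = 0.000167). With transcript lengths in the fit the Mx1 value was 0.66 (adjusted p = 0.133). Between CD8+ and CD4+ cells, the median of the 9 loading genes had the opposite sign to that of the interferon-stimulated genes (0.35 in KO and 0.72 in WT cells). Ifit1, an antiviral protein, was lower in CD8+ cells by a log2 difference of -2.85 ± 0.20 in KO (adjusted p = 2.97e-09) and -3.67 ± 0.20 in WT cells (adjusted p = 3.29e-10).

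Across the 18 libraries, log2 CPM of Tap2, Psmb9, Psmb8 and Tap1 were close to one another, with Pearson r of 0.927 to 0.98 for their pairs. B2m ran against them (r = -0.83 to -0.725), and Psmb10 had r of 0.0664 to 0.283 with the other 8 genes. These are descriptions over 18 libraries that share population, genotype and library number, and the CD8+ libraries form a cluster of their own. A mean of at least 5 CPM was reached by 9804 genes, the 9 members included. Of those outside the set, the most like the mean of the 9 genes were Il15ra (r = 0.962), Nifk (0.94), Psme2 (0.928), Cct7 (0.924) and Slc25a5 (0.917). Those most like Nlrc5 alone were Cxcl9 (0.867), Washc5 (0.84), Bak1 (0.817), Lnx2 (0.815) and Plaat3 (0.806).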

How the data were processed

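RNA of sorted splenic dendritic cells was sequenced from 18 libraries. The authors deposited estimated counts per transcript (117135 transcripts) and TPM per transcript (84086 transcripts). Per the submitters' processing notes, the tools were Salmon 0.14.1 and FastQC 0.11.8 on build GRCm38. Whether strand was used is not given in the sources used here. Transcripts were summed per gene. Of the transcripts with counts, 152 had no gene in the TPM table's gene column; GENCODE M21 named 37, and the other 115, which hold at most 0.16% of any library, were dropped.

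The authors' estimated counts were rounded, filtered with filterByExpr, scaled by TMM and fitted over all 6 groups with edgeR 4.0.16 (R 4.3.3; quasi-likelihood test, 12 residual degrees of freedom, Benjamini-Hochberg adjustment over 13381 genes, threshold 0.05). CPM were computed from these counts. The authors' deposited TPM served for levels, subunit ratios (exact permutation tests, SciPy 1.17.1) and alternatives in limma 3.58.1 with pseudocounts of 1 and 0.1, where a fold change is on the log2(TPM + pseudocount) scale. DESeq2 1.42.0 was a further alternative. The script was tested on simulated data. Replicates differed by more than sampling noise (chi-square per gene 9.77 to 33.5).

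The rule for named genes takes all 9 members, up to 4 called genes of each list with the smallest adjusted p between KO and WT (2 in other comparisons), the constitutive catalytic subunits, H2-K1, H2-D1, Irf1 and Irf8, and the 5 genes most like the members' mean or Nlrc5. The text names only some of the list genes that the rule takes, and gives the rest as counts. The lists were heavy chains, chaperones, constitutive, core and cap proteasome subunits, activators and assembly factors, cytosolic peptidases, regulators, interferon-stimulated genes, cross-presentation factors and markers of other cells. The members and lists were chosen with earlier results of these data known. Libraries with the same number were checked for pairing, which the labels do not state. Every correlation of deviations was over 0.1 for CD8+ against CD4+ cells (0.148 to 0.181) and CD8+ against CD4- cells (0.221 to 0.262) within KO, and for no KO to WT comparison.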

Additional observations from a re-analysis of the deposited data

Results flagged for a closer look

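The effect of the KO on Psmb9 differed between populations by a test of the difference itself. It was lower in CD4+ than in CD8+ cells by a log2 difference of -0.96 ± 0.30 (adjusted p = 0.028, edgeR's quasi-likelihood test), with fold changes of -0.69 in CD4+ and 0.26 in CD8+ cells. The call was lost when any of several single libraries was left out, as listed above. Groups of 3 libraries were too small for a test of single outlying libraries.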

How the results depend on the processing

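Of 108 values of the 9 genes (9 genes in 12 comparisons), 29 were called. Under every alternative run, 20 of these kept their call and direction, and 27 kept their direction. Of the 79 values not called, 54 were called under no alternative, and 41 changed sign, none of these beyond a log2 value of 0.20 with all libraries. Unscaled log2(TPM + 1) moved the median of all genes by -0.103, -0.202 and -0.128 for KO against WT in CD4+, CD4- and CD8+ cells, by -0.137 for CD8+ against CD4- cells in WT and by -0.141 for CD4+ against CD4- cells in WT. Directions turned for Tapbp in KO CD4- against WT CD4- cells (-0.0805 on log2(TPM + 1) and -0.0808 with 0.1) and in KO CD8+ against KO CD4+ cells (-0.13 with the length offset, -0.17 and -0.17 on log2 TPM, and -0.11 on TMM-scaled TPM). They turned for Psmb6 between KO and WT CD4- cells (-0.21 and -0.22 on log2 TPM, 0.09 in the counts) and Psma6 there (-0.00478 and -0.00482, 0.28 in the counts), and for Tap1 between KO and WT CD4+ cells (-0.28 without the KO libraries 1). The cause was not tested.

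Counts of the 9 genes called moved as follows, with the share of all genes called in brackets. For KO against WT in CD4+ cells, 2 were called (35.1%), and 1 in a fit of the groups compared only (34.0%). The count was 4 without the KO libraries 1 (32.9%), and 1 to 2 with single libraries left out (28.6% to 31.7%). In CD4- cells 1 was called (25.9%). The count was 0 with the length offset (16.6%), with pseudocounts of 1 (26.9%) and 0.1 (25.5%), and on TMM-scaled TPM (18.1%). In CD8+ cells 0 were called (15.7%). The count was 1, Tapbp, lower in KO, with pseudocounts of 1 (12.3%) and 0.1 (13.5%), and 1 without the KO libraries 1 (12.8%). For the KO effect in CD4+ against CD8+ cells, 1 was called (22.1%), 3 with DESeq2 (23.2%), and 2 with no filter (10.6%). The count was 2 with the replicate block (24.1%), 2 without the KO libraries 1 (20.1%), and 5 with the block within genotype (26.5%). With single libraries left out it was 0 to 2 (18.2% to 21.6%). In CD4- against CD8+ cells 0 were called (13.2%). The count was 1 with DESeq2 (14.3%), the replicate block (14.9%), the groups compared only (11.9%) and the block within genotype (17.0%). Without the KO libraries 1 it was also 1 (11.0%). In CD4+ against CD4- cells 0 were called (3.76%), and 1 without the KO libraries 1 (3.55%). The count was 2 with the block within genotype (6.35%), and 0 to 1 with single libraries left out (2.23% to 4.00%). Between KO CD4+ and KO CD4- cells 0 were called (7.95%). The count was 1 with the replicate block (9.27%), pseudocounts of 1 (3.99%) and 0.1 (4.12%), and without the KO libraries 1 (6.11%). With the block within genotype it was 5 (11.6%), namely B2m at 0.30, Tap1 at -0.40, Tap2 at -0.35, Psmb8 at -0.30 and Psmb9 at -0.37 (highest adjusted p = 0.0192, edgeR). With single libraries left out it was 0 to 4 (4.83% to 6.91%). Between WT CD4+ and WT CD4- cells 0 were called (16.7%), 1 in a fit of the groups compared only (19.1%) and 2 with the block within genotype (21.3%). With single libraries left out, 5 to 8 of 9 were called for CD8+ against CD4+ cells in KO (45.3% to 48.0%) and 7 in WT (38.6% to 41.5%). For CD8+ against CD4- cells 5 were called in KO (39.9% to 44.7%) and 5 to 6 in WT (35.2% to 38.9%).

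The replicate block, which pairs libraries by number, left all calls in KO CD8+ against CD4+ and CD4- cells in place. For KO against WT, where the numbers did not pair the libraries, it called Tap2 in CD4+ cells (-0.39, adjusted p = 0.0053, edgeR). Of 18 libraries, 17 correlated best on average with their own number in the other groups.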

Other observations

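Of 10 cross-presentation factors, 4 were higher and 2 lower in KO than in WT CD4+ cells (median log2 0.27), 4 higher and 1 lower in CD4- cells (median 0.18), and 0 higher and 1 lower in CD8+ cells (median -0.04), where 35.1%, 25.9% and 15.7% of all genes were called. Wdfy4, which cDC1 need for cross-presentation, fell by 1.79 on the log2 scale in KO CD4+ cells (adjusted p = 1.5e-07, edgeR), and Clec9a, a receptor for dead cells, rose by 0.78 ± 0.13 there (adjusted p = 0.000174, edgeR). Cybb, a subunit of the phagosomal NADPH oxidase, rose by 1.23 ± 0.21 in KO CD4+ cells (adjusted p = 0.000221, edgeR) and fell by 1.95 in KO CD8+ cells (adjusted p = 1.09e-05, edgeR). In CD8+ against CD4+ cells 5 were higher and 2 lower in both genotypes, where 50.8% (KO) and 45.6% (WT) of all genes were called. Of 6 cytosolic peptidases tested, 0 were called between KO and WT in any population by edgeR. In CD8+ against CD4+ cells 2 were higher and 0 lower in either genotype. These counts stand beside the same 35.1%, 25.9% and 15.7%, and 50.8% (KO) and 45.6% (WT), of all genes.

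Other marker lists summed as follows. The pan-cDC genes summed to 52930 to 59460 CPM in KO and 33460 to 34870 CPM in WT CD4+ cells. The B cell genes summed to 11.7 to 18.9 CPM in KO and 37.9 to 52.6 CPM in WT CD8+ cells, and the pDC genes to 202 to 255 CPM in KO and 302 to 413 CPM in WT CD8+ cells. The erythroid genes summed to 94.3 to 198 CPM in KO and 35.8 to 51.5 CPM in WT CD8+ cells, and the neutrophil genes to at most 1.19 CPM in any library.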
